A study of Mus musculus with 8 samples.

Results

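The genes described are 9 epithelial ion and fluid transport genes, followed as transcripts per 10,000 in the epithelial cells of mouse lungs after cigarette smoke (CS) or room air (RA). They were found by symbol among the 33027 genes of the matrix: Scnn1a, Scnn1b, Scnn1g, Cftr, Ano1, Slc12a2, Kcnq1, Kcne2 and Atp1b1. The group was picked in part because Kcne2 was lower in the AT2 cells of CS mice, so the CS and RA values of AT2 cells are given as a description, without a test. The lungs of 4 CS and 4 RA mice were profiled as single cells with 3′ tag counting, and each mouse was 1 library. All 8 were C57BL/6 mice carrying Sftpc-CreERT2 and the mTmG reporter, in which Cre activity is driven by the promoter of the AT2 gene Sftpc. By the study's methods all received tamoxifen on 4 days at 8 to 10 weeks of age, and littermates were then exposed for 10 months to room air, or to smoke of 3R4F research cigarettes on 5 days a week. Dissociated cells were mixed to 10% CD45+ and 90% CD45- cells, so the share of CD45+ cells is set by that mix. Shares of cell types are not compared here.

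The lining of the airways and alveoli moves salt, and water follows it. Sodium enters through the apical epithelial sodium channel ENaC, built from an alpha, a beta and a gamma subunit (Scnn1a, Scnn1b, Scnn1g), and leaves through the basolateral Na,K-ATPase, of which Atp1b1 is the beta 1 subunit. In secretion, chloride enters through the basolateral cotransporter NKCC1 (Slc12a2) and leaves through the apical chloride channels CFTR (Cftr) and anoctamin 1 (Ano1), while the potassium channel Kcnq1, often partnered by the accessory subunit Kcne2, helps to set the electrical driving force.

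The deposited cell labels gave 8549 epithelial cells among 40074 kept cells, of which 975 were AT1, 1881 AT2, 3519 ciliated, 1389 club, 509 goblet, 192 basal and 84 neuroendocrine cells. All 7 AT2 markers, 6 AT1 markers, 5 ciliated markers and 6 goblet markers were highest in the cells of that label, with summed levels of 1400 to 1721 for AT2 and 294 to 396 for AT1 cells. Of 4 club markers only Scgb1a1 was highest in club cells, and the summed club markers overlapped between goblet cells (3799 to 5545) and club cells (3742 to 4584). Of 4 basal markers, Krt5, Trp63 and Krt15 were highest in basal cells, in 56.8%, 91.2% and 92.2% of them, and Krt14 was found in 2.60%. Of 5 fibroblast genes in basal cells, Dcn was found in 97.4% and the other 4 in 0.521% to 3.12%. Of 5 endothelial genes in AT2 cells, Pecam1 was found in 56.9% and the other 4 in 0.585% to 13.7%, and 302 of 1881 AT2 cells held 2 or more of the 5. No marker list was fixed for neuroendocrine cells. Kept cells held 31094695 to 52753531 unique molecules (UMIs) per mouse, and the median cell held 27543 to 51739 UMIs in club and 25921 to 64068 in goblet cells, against 8346 to 17293 in AT1 cells, depending on the mouse. Of all cell barcodes, 197 occurred in 2 libraries. Genes that mark sex went against the labelled sex in all 4 CS libraries and in none of the 4 RA libraries, so sexes were not compared, and mice are named by their library labels (C2, C5, D2 and D5 for CS, F1, F3, M1 and M3 for RA). The study's methods give 2 males and 2 females in each exposure, and by these genes too each exposure held libraries of both sexes. Each of 4 lanes held 1 CS and 1 RA library. Values below are means over the cells of 1 mouse, for mice with at least 20 cells of the type, and per-mouse values follow these label orders. Because a 3′ library counts tags without regard to gene length and here included unspliced reads, levels are compared between cell types and mice, and not between genes. The files give relative levels, so less RNA of a gene per cell and more RNA of other genes cannot be told apart.

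Before the comparison of exposures, the promoters of 3 members are shown, since the beta and gamma subunit genes neighbour each other and were both highest in AT1 cells, and Kcne2 is the gene the group was picked by and has 2 RefSeq starts. Scnn1g (chr7:121734479-121768475, + strand) and Scnn1b (chr7:121865038-121918514, + strand) are separated by 96562 bases in the GENCODE annotation of GRCm38. The 250 bases before each RefSeq start (GRCm38.p6) are printed 5′ to 3′ on the strand of the gene, with the letters of any searched motif in capitals. The search took GGGCGG (a GC box), CAAGTG (the NKX2-1 core), GGAATG (TEAD) and TGTTCT (a glucocorticoid receptor half-site) on both strands.
Scnn1g, chr7:121734229-121734478, + strand: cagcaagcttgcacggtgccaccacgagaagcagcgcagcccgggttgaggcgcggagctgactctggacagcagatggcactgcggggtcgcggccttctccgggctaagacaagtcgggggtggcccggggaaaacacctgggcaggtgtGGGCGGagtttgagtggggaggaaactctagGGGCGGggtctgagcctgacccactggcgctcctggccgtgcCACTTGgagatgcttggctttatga
Scnn1b, chr7:121864788-121865037, + strand: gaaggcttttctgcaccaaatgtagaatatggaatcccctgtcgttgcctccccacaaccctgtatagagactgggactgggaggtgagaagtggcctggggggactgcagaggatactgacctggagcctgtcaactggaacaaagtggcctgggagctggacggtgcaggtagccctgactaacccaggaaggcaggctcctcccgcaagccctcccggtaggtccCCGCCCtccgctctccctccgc
Kcne2, chr16:92292139-92292388, + strand: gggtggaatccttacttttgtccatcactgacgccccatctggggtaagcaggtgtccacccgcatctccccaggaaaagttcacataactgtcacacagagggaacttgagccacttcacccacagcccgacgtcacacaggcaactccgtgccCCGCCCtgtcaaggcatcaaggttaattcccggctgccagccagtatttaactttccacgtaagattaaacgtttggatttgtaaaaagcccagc
Kcne2, second start, chr16:92295366-92295615, + strand: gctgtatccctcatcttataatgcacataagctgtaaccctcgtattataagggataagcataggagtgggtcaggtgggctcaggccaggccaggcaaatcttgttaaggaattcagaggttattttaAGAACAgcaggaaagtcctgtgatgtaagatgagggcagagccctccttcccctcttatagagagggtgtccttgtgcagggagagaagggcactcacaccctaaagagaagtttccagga
The GC box occurred 2 times in the Scnn1g window, 1 time in the Scnn1b window, 1 time in the first Kcne2 window and 0 times in the second, and 32.7% of 32851 promoter windows of this length held it. The NKX2-1 core occurred 1 time in the Scnn1g window and in none of the other 3, against 11.6% of all windows. TGTTCT occurred 1 time in the second Kcne2 window and in none of the other 3, against 16.1% of all windows. GGAATG (12.6% of all windows) was not among the letters of these 4 windows. These matches are descriptions of the letters, and not of binding.

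The ENaC subunits differed in where they were found. Scnn1a was highest in AT1 cells, at 10.3 ± 1.95 transcripts per 10,000 (SD, n = 8 mice), then in ciliated cells at 3.01 ± 0.370 and club cells at 1.96 ± 0.352, and the mice of AT1, ciliated and club cells did not overlap. From club cells on, AT2 cells (1.46 ± 0.319), goblet cells (1.24 ± 0.299) and basal cells (1.18 ± 0.328, n = 4 mice) overlapped with their neighbour in the order. Outside the epithelium, Scnn1a was found in the cells labelled NG at 0.887 ± 0.241 (n = 8). Scnn1b was also highest in AT1 cells, at 5.57 ± 0.677, followed by club cells at 2.25 ± 0.390 and goblet cells at 0.953 ± 0.372. Its level in ciliated cells was 0.0214 ± 0.00517, within the range of many non-epithelial types. Scnn1g was likewise highest in AT1 cells, at 6.36 ± 0.821, but goblet cells (0.734 ± 0.222), basal cells (0.718 ± 0.106, n = 4) and club cells (0.595 ± 0.188) overlapped, and ciliated cells held 0.00905 ± 0.00437. Ciliated cells thus ranked second of all types for the alpha subunit and low for the beta and gamma subunits.

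The same contrast was seen within single cells. All 3 subunits were found together in 87.0% to 98% of the AT1 cells of a mouse, in 45.1% to 76.3% of club cells and in 50% to 88.0% of goblet cells. In ciliated cells they were found together in 0.0% to 1.29%, and Scnn1a was found without the other 2 subunits in 86.4% to 93.8%. AT2 cells held Scnn1a alone in 45.7% to 62.7% and all 3 subunits in 0.0% to 4.31%, a range that overlapped with that of ciliated cells. In B cells, which serve as a type that should lack ENaC, all 3 subunits were found together in 0.0% of cells and Scnn1a alone in 0.483% to 3.83%, at a median depth of 4055 UMIs against 15907 in ciliated cells and 10135 in AT1 cells. The shares were not compared between exposures, since depth differed between mice.

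**Figure D1:**
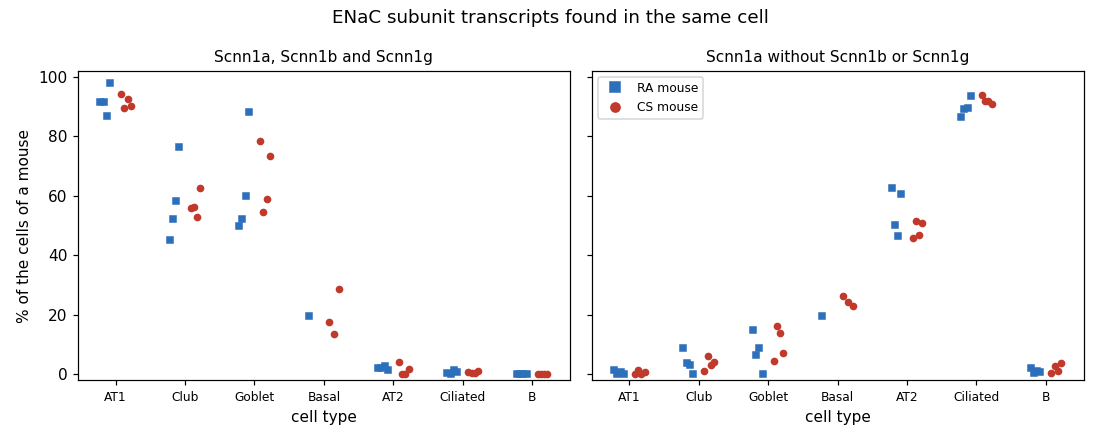
Share of the cells of each mouse (% on the y axis) in which all 3 ENaC subunits (left) or Scnn1a without the other 2 (right) were found, by cell type on the x axis; blue squares are RA mice and red circles CS mice. AT1 cells sit at 87.0% to 98% in the left panel and ciliated cells at 86.4% to 93.8% in the right panel, with B cells near the floor of both.

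The secretory genes had other distributions. Cftr was highest in AT2 cells, at 0.690 ± 0.260 (n = 8 mice), above club cells at 0.284 ± 0.0803 with no overlap of mice. Mesothelial cells (0.238 ± 0.0711, n = 7) overlapped with club cells, and AT1 and ciliated cells held 0.0177 ± 0.0293 and 0.0103 ± 0.00605. Foxi1, the transcription factor that marks the CFTR-rich ionocytes of the airway, was found in 0 of 8549 epithelial cells, which allows a share of cells with a Foxi1 UMI of up to 0.0351%. This limit pools the mice, covers counting error only and says nothing of cells that express the gene without a UMI. The cells include AT1 and AT2 cells, so the limit for airway cells alone would be higher. Slc12a2 was spread widely: basal cells (4.44 ± 0.830, n = 4), goblet cells (4.34 ± 0.853), AT2 cells (3.80 ± 0.697) and non-classical monocytes (3.09 ± 1.197, n = 7) overlapped, while ciliated cells held 0.406 ± 0.0872. Ano1 was highest in AT1 cells, at 7.05 ± 2.12, followed by mesothelial cells at 3.33 ± 0.567 (n = 7), which overlapped with AT1 cells only through the RA mouse F1. Smooth muscle cells (1.29 ± 0.576, n = 3), goblet cells (1.07 ± 0.379) and club cells (0.545 ± 0.0845) came next.

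The potassium channel genes parted from each other. Kcne2 was highest in AT2 cells, at 0.656 ± 0.274 (n = 8), above ciliated cells at 0.147 ± 0.0592 with no overlap of mice, and goblet cells held 0.00691 ± 0.00831. It was found in 44.3% of AT2 cells at a median depth of 11684 UMIs and in 0 of 2334 B cells at 4055 UMIs, which allows a share of B cells with a UMI of up to 0.129%. Kcnq1 was highest in endothelium, at 2.93 ± 0.372 in capillary A cells and 2.10 ± 0.384 in capillary B cells. In the epithelium it was highest in goblet cells, at 1.68 ± 0.601, followed by AT2 cells at 1.13 ± 0.264, and AT1 cells held 0.0832 ± 0.0327 with CS and 0.0876 ± 0.0545 with RA (n = 4 each). Kcnq1 (chr7:143106362-143427042, + strand) overlaps 12 annotated genes, among them the long antisense RNA Kcnq1ot1, and whether its reads were counted by strand is not given in the sources used here, so its values are uncertain. Atp1b1 was highest in AT2 cells, at 10.9 ± 1.52, then in basal cells at 7.77 ± 0.812 (n = 4) and club cells at 6.11 ± 0.531.

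**Figure D2:**
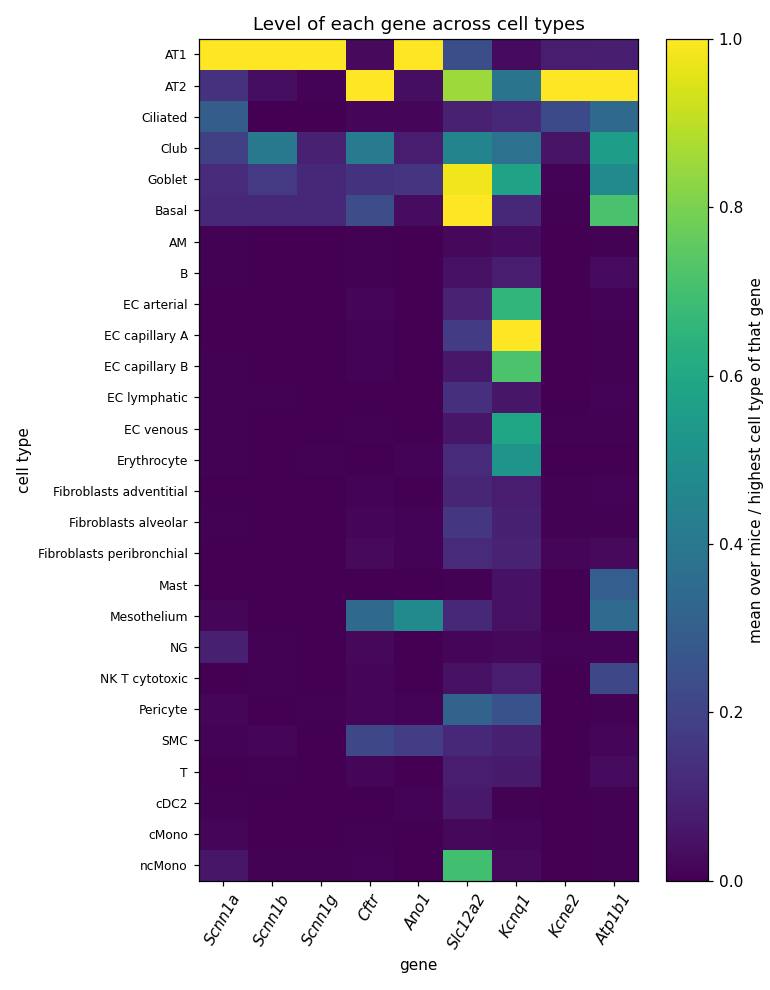
Mean level over mice of each gene (columns) in each cell type (rows), divided by the highest cell type of that gene, so that 1 on the colour scale is the highest type. The 3 ENaC subunits and Ano1 peak in AT1 cells, Cftr, Kcne2 and Atp1b1 in AT2 cells, Slc12a2 in basal and goblet cells, and Kcnq1 in capillary A endothelium.

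Likeness over the 31 cell types with at least 50 cells is given as Pearson's r of log2(mean + 1) among 15683 genes, as a description over types that share libraries. Scnn1b and Scnn1g were each other's most like gene (r = 0.944), and both reached 0.83 and 0.82 with Scnn1a. Scnn1a was most like Myh14 (0.973), Rassf7 (0.961) and Ap1m2 (0.952). After Scnn1g, Scnn1b was most like Slc1a1 (0.920) and AA986860 (0.917), and after Scnn1b, Scnn1g was most like Itgb6 (0.942) and Platr22 (0.941). Ano1 was most like Il17re (0.916), Col4a4 (0.909) and Pard6b (0.903). Kcne2 was most like Hc (0.965), which encodes complement C5, Lgi3 (0.964) and Pla2g1b (0.964), and Cftr was most like the surfactant gene Sftpb (0.900), Cxcl15 (0.897) and Gm20629 (0.889). Kcnq1 was most like Ica1 (0.872), Tmeff1 (0.818) and the hypoxia factor Epas1 (0.811). Lower likeness was reached by Slc12a2 with Gjb2 (0.794), Pxmp2 (0.792) and Ehf (0.776), and by Atp1b1 with Fgfbp1 (0.814), Tmem56 (0.808) and Wfdc2 (0.793). Kcne2 and Cftr reached r = 0.80 with each other, whereas Kcne2 and Kcnq1, which can form 1 channel, reached 0.17.

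The question put to each epithelial type was whether these genes differed after 10 months of smoke. None of the 9 passed the test in any of the 4 tested types: limma with Benjamini-Hochberg adjustment over all genes called 0 of 29 tests of members in AT1, ciliated, club and goblet cells, and 10 of the 29 had an unadjusted p under 0.05, where 17.6% of all genes in AT1, 24.1% in ciliated, 10.4% in club and 12.7% in goblet cells did. Fits were limited to genes detected in 10% or more of either group's cells, a limit that a gene high in only 1 group can pass through that group: 6 members passed in AT1, 6 in ciliated, 9 in club, 8 in goblet and 8 in AT2 cells. Over all genes tested, 2.38% were called in AT1, 4.63% in ciliated, 0.199% in club and 0.177% in goblet cells. An exact two-sided permutation test over mice was also run for all 9 members in these 4 types, whether or not they passed the filter. Of the 36 tests, 6 gave the smallest p that 4 against 4 mice allow, 0.0286, unadjusted; in each of these the lowest CS mouse exceeded the highest RA mouse. Of the 29 pairs of a member and a type that passed, 6 were higher without overlap and 0 lower, but 1 of the 6, Kcne2 in club cells, passed only through the CS mice (10.6% of CS and 5.9% of RA cells). Among the 28 that passed in both groups, 5 were higher without overlap and 0 lower, and 9 had an unadjusted p under 0.05. Over all genes tested, 5.77% in AT1, 9.28% in ciliated, 4.49% in club and 7.24% in goblet cells were higher in this way, and 5.17%, 6.65%, 2.06% and 1.28% were lower. These shares, and those set beside counts below, include genes that passed the filter through only 1 group.

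**Figure D3:**
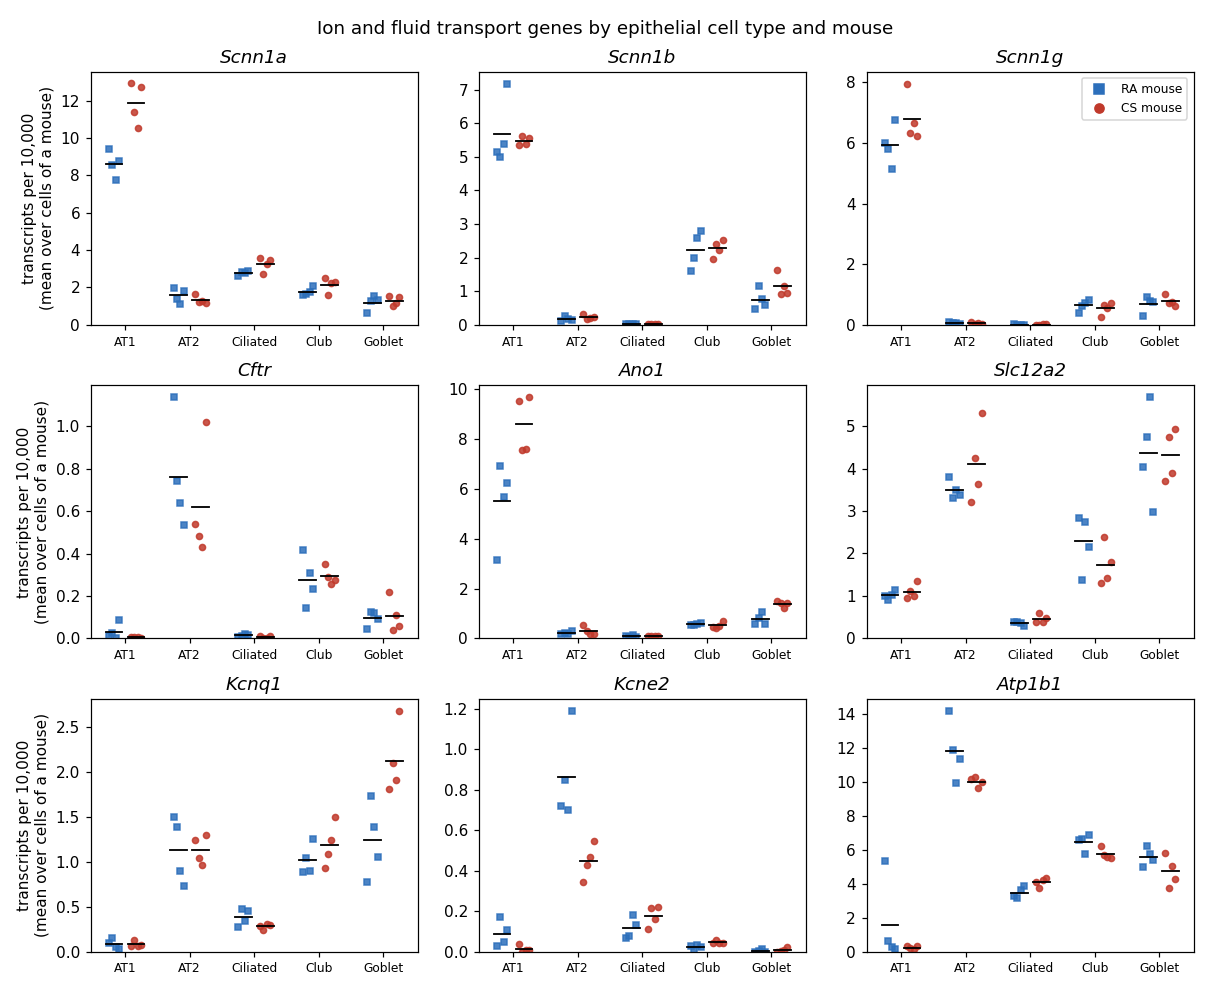
Transcripts per 10,000 (y axis, a scale for each gene) in each mouse by epithelial type (x axis); blue squares are RA mice, red circles CS mice and black lines group means. In AT1 cells the CS mice sit above the RA mice for Scnn1a (10.6 to 12.9 against 7.76 to 9.41) and Ano1, and in AT2 cells below them for Kcne2 (0.343 to 0.546 against 0.702 to 1.19).

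In AT1 cells, the thin cells of gas exchange, Scnn1a was 12.9, 11.4, 10.6 and 12.7 in CS mice and 9.41, 8.54, 7.76 and 8.78 in RA mice. All 4 CS mice exceeded all 4 RA mice. The means were 11.9 ± 1.13 and 8.63 ± 0.681 (SD, n = 4 each), a difference of 0.42 on the log2(value + 1) scale (SE 0.113, limma adjusted p = 0.0613, exact permutation p = 0.0286), and CS, with no overlap of mice, necessarily exceeded RA within each of the 4 lanes. Without the RA mouse F1 the same difference was 0.46 with a limma adjusted p of 0.0311, and over genes detected in 25% or more of cells the limma adjusted p was 0.0444. Over all 15 alternatives the difference was 0.38 to 0.47 and the limma adjusted p 0.0311 to 0.223, the highest without the filter on low genes, and these 2 settings were the ones that gave a call. The other subunits in the same cells overlapped between the exposures, and whether the difference varied between subunits was not tested. Scnn1g was 7.95, 6.33, 6.65 and 6.24 in CS mice against 6.01, 5.80, 5.13 and 6.75 in RA mice, and the groups overlapped (log2 difference 0.17, SE 0.112, limma adjusted p = 0.452). Scnn1b was 5.36 to 5.62 in CS mice, within the 4.99 to 7.17 of RA mice (log2 difference -0.03, SE 0.112, limma adjusted p = 0.91).

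Ano1 in AT1 cells was 9.55, 7.57, 7.62 and 9.68 in CS mice and 3.16, 6.93, 5.69 and 6.22 in RA mice. The groups did not overlap, and F1 was the lowest mouse. The means were 8.60 ± 1.17 and 5.50 ± 1.64, a log2 difference of 0.60 (SE 0.169, limma adjusted p = 0.0776, exact permutation p = 0.0286). Leaving out 1 mouse at a time or changing the processing, the difference was 0.40 to 0.71 and the limma adjusted p 0.0519 to 0.353. The summed level of 6 AT1 markers was itself lower in every CS mouse (294 to 346) than in every RA mouse (349 to 396), and its part in the AT1 results was not tested.

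Atp1b1 in AT1 cells turned on 1 mouse. It was 0.319, 0.206, 0.147 and 0.331 in CS mice and 5.32, 0.629, 0.297 and 0.141 in RA mice, where F1 stood apart. In F1 it was found in 88.9% of AT1 cells with a median cell of 4.68, against 9.83% to 32.3% of cells and a median of 0.0 in the other mice. In the 146 of 153 F1 AT1 cells without the AT2 marker Sftpc, the level was also 5.32. So few cells were left out that this value could hardly have differed, and the cause of the high value was not tested. The log2 difference was -0.66 with F1 and -0.10 without it (limma adjusted p 0.352 and 0.646). Slc12a2 was 0.944 to 1.36 in CS and 0.908 to 1.13 in RA mice, with overlap. Cftr, Kcnq1 and Kcne2 did not pass the filter in AT1 cells, and their exact permutation p values were 0.229, 0.971 and 0.0571. Kcne2 there was 0.0 to 0.0410 in CS and 0.0307 to 0.1702 in RA mice.

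In AT2 cells, the surfactant-making cells whose values chose the group, Kcne2 was 0.343, 0.430, 0.467 and 0.546 in CS mice and 0.721, 0.849, 0.702 and 1.19 in RA mice. The groups did not overlap. The means were 0.447 ± 0.0841 and 0.865 ± 0.226 (SD, n = 4 each), 0.516 times the RA level, and the log2 difference was -0.36 at a pseudocount of 1 and -0.81 at a pseudocount of 0.1, since the gene is low. Of all genes in AT2 cells 2.1% were lower without overlap and 0.0% were called, which is stated beside a gene that was chosen by this contrast and not read further. The AT1 values of Kcne2, given above, were near the floor, where the gene did not pass the filter, and are not read as support. They lay below those of all RA mice in 3 of 4 CS mice and overlapped through C2. Ciliated cells held 0.178 ± 0.0516 with CS and 0.116 ± 0.0545 with RA, with overlap (limma adjusted p = 0.233). Club cells held 0.0422 to 0.0570 in CS and 0.00924 to 0.0347 in RA mice, also near the floor. There the gene passed the filter only through the CS mice, so that the lack of overlap is not read as support (log2 difference 0.03, SE 0.0127, limma adjusted p = 0.424).

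The other members overlapped between the exposures in AT2 cells. Atp1b1 was 9.66 to 10.3 in CS and 9.91 to 14.2 in RA mice, with F1 the highest. Cftr was 0.538, 0.485, 0.429 and 1.02 in CS mice and 1.14, 0.744, 0.637 and 0.533 in RA mice. Slc12a2 was 3.21 to 5.32 against 3.31 to 3.81, Scnn1a 1.19 to 1.66 against 1.14 to 1.99, and Kcnq1 0.965 to 1.30 against 0.731 to 1.499. For the partner subunits Kcne2 and Kcnq1 the ratios of CS to RA means in these cells were 0.516 and 1.01.

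Of 8 members tested in goblet cells, the mucus-secreting cells of the airway, 2 were higher and 0 lower without overlap. Of all genes tested there, 7.24% were higher and 1.28% lower in this way, with a median log2 difference of 0.027. Ano1 was 1.498, 1.40, 1.23 and 1.43 in CS mice and 0.560, 0.810, 1.07 and 0.588 in RA mice. All 4 CS mice exceeded all 4 RA mice. The means were 1.39 ± 0.116 and 0.757 ± 0.238, 1.83 times as high in CS mice (log2 difference 0.45, SE 0.106, limma adjusted p = 0.122, exact permutation p = 0.0286). Kcnq1 was 1.81, 2.10, 1.91 and 2.68 in CS mice and 0.782, 1.73, 1.39 and 1.06 in RA mice, with means of 2.13 ± 0.389 and 1.24 ± 0.412 (log2 difference 0.49, SE 0.146, limma adjusted p = 0.205, exact permutation p = 0.0286). The overlapping antisense gene Kcnq1ot1 was 0.888 to 2.12 in CS and 1.38 to 2.83 in RA goblet cells, with overlap. Goblet cells numbered 23 to 137 per mouse. Their summed level of 6 goblet markers was 44.1 to 78.0 in CS and 72.3 to 93.6 in RA mice, overlapping through the CS mouse C5. The summed level of 4 basal markers in them was 0.871 to 3.13 in CS and 0.0335 to 1.31 in RA mice, with overlap. The part of these markers in the goblet results was not tested. Scnn1b was 0.906 to 1.64 in CS and 0.458 to 1.16 in RA mice with overlap (limma adjusted p = 0.341), and Scnn1a, Scnn1g, Cftr, Slc12a2 and Atp1b1 overlapped with limma adjusted p values of 0.672 to 0.991.

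In ciliated cells Slc12a2 was 0.390, 0.587, 0.387 and 0.467 in CS mice and 0.380, 0.377, 0.371 and 0.291 in RA mice. The groups did not overlap, though the gap between them was small (log2 difference 0.10, SE 0.0441, limma adjusted p = 0.182, exact permutation p = 0.0286). At a pseudocount of 0.1 this difference was 0.285, since the gene is low in these cells. Atp1b1 was 4.10 ± 0.264 in CS and 3.49 ± 0.325 in RA mice, higher in 4 of 4 lanes (log2 difference 0.19, SE 0.0719, limma adjusted p = 0.151), and Scnn1a was 3.25 ± 0.392 and 2.78 ± 0.126 (0.17, SE 0.0735, limma adjusted p = 0.199). Kcnq1 was 0.286 ± 0.0296 in CS and 0.386 ± 0.0902 in RA mice (log2 difference -0.11, SE 0.0425, limma adjusted p = 0.163). The overlapping antisense gene Kcnq1ot1 was 4.02 to 4.90 in CS and 4.49 to 6.92 in RA ciliated cells, with overlap. In club cells it was 1.68 to 2.43 in CS and 2.57 to 3.62 in RA mice, without overlap, where Kcnq1 was 0.934 to 1.503 and 0.890 to 1.25. The part of Kcnq1ot1 in the Kcnq1 values was not tested. The summed level of 7 AT2 markers in ciliated cells was 1.72 to 3.99 in CS and 1.22 to 1.69 in RA mice, without overlap, and its part in the ciliated results was not tested. In club cells, besides Kcne2, all other members overlapped: Slc12a2 was 1.72 ± 0.491 in CS and 2.28 ± 0.670 in RA mice, and Atp1b1 5.76 ± 0.320 and 6.46 ± 0.479 (limma adjusted p = 0.585 and 0.723).

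**Figure D4:**
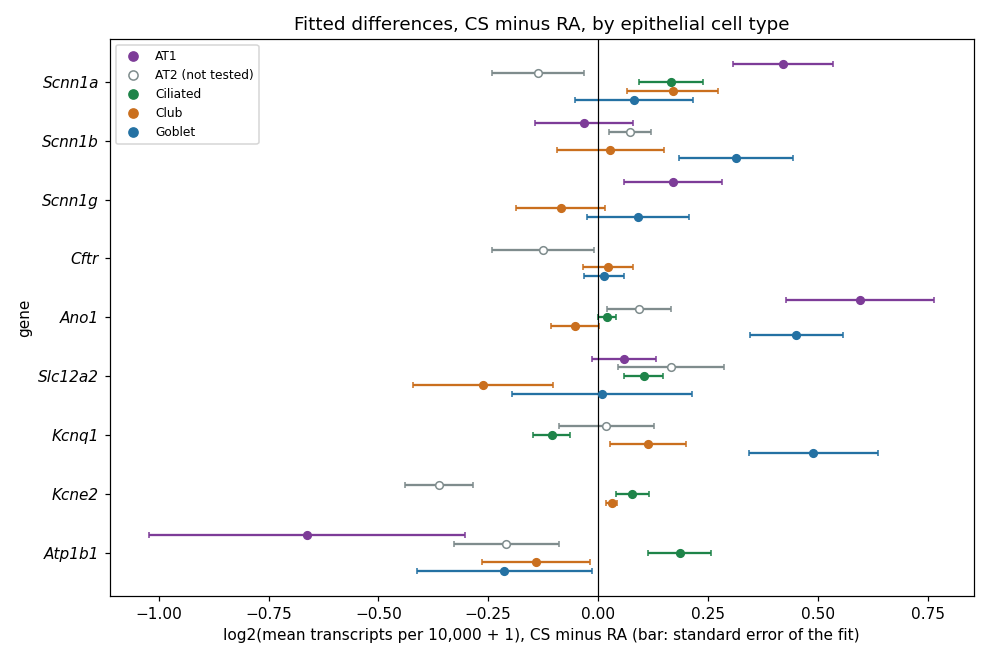
Fitted difference CS minus RA of log2(mean transcripts per 10,000 + 1) on the x axis, by gene on the y axis and cell type by colour; bars are 1 standard error, and open points are AT2 cells, which were not tested. Ano1 lies at 0.60 in AT1 and 0.45 in goblet cells and near 0 in club cells and in ciliated cells, where its level is low, and no point passed the test.

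Whether the smoke difference itself varied between types was tested by exact two-sided permutation over mice of the per-mouse difference between 2 types, for 35 pairs of a member and 2 of the 4 tested types. In 6 pairs p was 0.0286, the smallest possible, unadjusted for the 35. The share of all genes that reach this p was not computed, and the pairs share genes, types and mice. The count is therefore not read as a result about the members, and the single pairs below are descriptions. On the log2(value + 1) scale a low gene cannot move far, so the pairs were also computed without a pseudocount, a setting chosen after seeing the data, and 4 of the 6 kept this p, while Kcnq1 between ciliated and club cells reached it (-0.62, against -0.22 and p = 0.0571 on the first scale, exact permutation). The Ano1 difference was larger in AT1 than in club cells by 0.65 log2 units (0.86 without a pseudocount), and the goblet difference exceeded the club difference, with 0.45 against -0.05 (0.92 against -0.16). Ano1 in ciliated cells was only 0.0936 ± 0.0151 with CS and 0.0786 ± 0.0300 with RA, and its contrasts with AT1 cells (0.58) and goblet cells (-0.43) did not keep this p without a pseudocount (0.38 and -0.61, exact permutation p = 0.343 and 0.114). Kcnq1 differed between ciliated and goblet cells (-0.11 against 0.49), and Atp1b1 between ciliated and club cells (0.19 against -0.14). Without a pseudocount these were -0.41 against 0.82 for Kcnq1 and 0.24 against -0.16 for Atp1b1. For Scnn1a, AT1 and ciliated cells differed by 0.26 (exact permutation p = 0.0571), and AT1 and goblet cells by 0.34 (exact permutation p = 0.143).

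Basal cells reached 20 cells in 3 CS mice and 1 RA mouse, so no test was made. Atp1b1 was 6.99 to 8.81 in the 3 CS mice and 8.01 in the RA mouse, and Slc12a2 was 4.38 to 5.24 and 3.31. Neuroendocrine cells reached 20 cells in no mouse.

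A wider list of 69 ion, water and junction genes was read beside the members. In ciliated cells limma called 3 of its 38 tested genes, beside 4.63% of all genes, and 2 of the 35 that passed the filter in both groups. An unadjusted p under 0.05 was reached by 13 of the 38 and 12 of the 35, beside 24.1% of all genes. Without overlap 6 were higher and 1 lower, beside 9.28% and 6.65% of all genes, and 5 and 1 among the 35. Slc4a4, a sodium bicarbonate cotransporter, rose: it was 0.709, 1.07, 0.688 and 0.887 in CS mice and 0.346, 0.429, 0.492 and 0.486 in RA mice (log2 difference 0.35, SE 0.0628, limma adjusted p = 0.0165). The tight junction gene Cldn7 fell, from 4.87 ± 0.158 to 3.80 ± 0.221 (limma adjusted p = 0.0289). The third call was Cldn4, another claudin, at 0.234 ± 0.0953 in CS and 0.0760 ± 0.0307 in RA mice, which passed the filter only through the CS mice (19.7% of CS and 7.57% of RA cells), so its values are a description and its call is not read as support. All 3 calls were lost without the filter on low genes (limma adjusted p = 0.085 for Slc4a4, 0.162 for Cldn4 and 0.0777 for Cldn7) and without the CS mouse D5 (0.0578, 0.0935 and 0.0956). The call of Cldn4 was also lost without C2, F1, F3 or M3, and that of Cldn7 without C2, D2, F3 or M3 or with lane as a block (limma adjusted p = 0.0969). Nedd4l, a ubiquitin ligase that removes ENaC from the membrane, was 3.15 ± 0.104 in CS and 2.46 ± 0.464 in RA ciliated cells without overlap (limma adjusted p = 0.104).

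**Figure D5:**
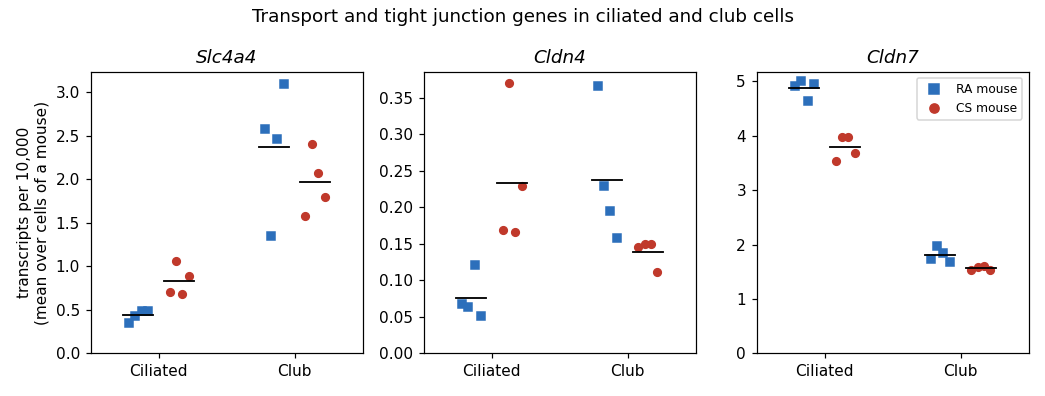
Transcripts per 10,000 (y axis) of Slc4a4, Cldn4 and Cldn7 in each mouse, in ciliated and club cells (x axis); blue squares are RA mice, red circles CS mice and black lines group means. In ciliated cells the CS mice sit above the RA mice for Slc4a4 and Cldn4 and below them for Cldn7, and in club cells below them for Cldn4 and Cldn7.

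In AT1, club and goblet cells limma called 0 genes of the wider list, of 25, 42 and 49 tested, with 4, 8 and 8 at an unadjusted p under 0.05, beside 17.6%, 10.4% and 12.7% of all genes. In AT1 cells 2 of 25 were higher and 0 lower without overlap, beside 5.77% and 5.17% of all genes. These were Spint1, an inhibitor of the proteases that cleave ENaC (1.46 ± 0.347 in CS and 1.04 ± 0.0893 in RA mice), and the kinase Wnk1 (8.25 ± 0.171 and 7.30 ± 0.498), with limma adjusted p values of 0.128 and 0.437. In club cells 3 of 42 were higher and 4 lower without overlap, beside 4.49% and 2.06% of all genes. The largest were Stk39, a kinase that acts on Slc12a2 (0.251 ± 0.0190 and 0.135 ± 0.0392), Spint1 (0.760 ± 0.0516 and 0.597 ± 0.0234) and Ano10 on the higher side, and the claudins Cldn3 (3.19 ± 0.159 and 3.68 ± 0.212), Cldn7 and Cldn4 on the lower side, with limma adjusted p values of 0.147 to 0.588. The summed level of 6 goblet markers was 1.16 to 2.62 in CS and 2.91 to 6.19 in RA club cells, without overlap, and its part in the club results was not tested. In goblet cells 4 of 49 were higher and 0 lower, beside 7.24% and 1.28% of all genes, and P2ry2, 1 of the 4, passed the filter only through the CS mice, which leaves 3 of the 45 that passed in both groups. Of these 45, 7 had an unadjusted p under 0.05. The other 3 were the water and glycerol channel Aqp3 (0.573 ± 0.0205 and 0.306 ± 0.180), Atp6v1c2 and the protease Tmprss4, with limma adjusted p values of 0.229, 0.315 and 0.122. In AT2 cells, as a description, the potassium channel gene Kcnj15 was 1.76 to 2.32 in CS and 2.43 to 2.64 in RA mice. Of 39 genes of the list there, 1 was lower without overlap, beside 2.1% of all genes, and 0 were higher. The medians of the fitted differences over the wider list were 0.03 in AT1, -0.01 in AT2, 0.03 in ciliated, 0.0 in club and 0.02 in goblet cells, beside 0.0004, 0.0036, 0.0064, 0.0094 and 0.027 over all genes tested.

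Outside the epithelium, 6 of the 9 members were found widely enough to be tested in 15 other types, in 34 tests. limma called 0 of them, against 1.13% of all tests in the 17 other types fitted, and 3 had an unadjusted p under 0.05, beside 15.5% of those tests. Slc12a2 was higher in CS mice without overlap in T cells (0.478, 0.539, 0.656 and 0.316 against 0.0722, 0.254, 0.273 and 0.292, limma adjusted p = 0.141), in alveolar fibroblasts (0.805 ± 0.124 against 0.607 ± 0.0269, limma adjusted p = 0.159) and in non-classical monocytes (2.64 to 5.54 in 4 CS mice against 1.97 to 2.46 in 3 RA mice, limma adjusted p = 0.702). Capillary B endothelium held 0.217 to 0.276 with CS and 0.19 to 0.392 with RA, and without the RA mouse M3 it was called lower (log2 difference -0.15, limma adjusted p = 0.0291) where the full set gave -0.10 and 0.172. Atp1b1 was lower without overlap in peribronchial fibroblasts of 3 CS against 3 RA mice (0.162 ± 0.0610 and 0.356 ± 0.119, limma adjusted p = 0.628). Over all genes in these 17 types 6.0% were higher and 5.24% lower without overlap.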

How the data were processed

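The authors aligned reads with STAR 2.7.3a (STARsolo) to GRCm38.p6, per the submitters' processing notes, and by the study's methods corrected for free RNA. The deposited matrix holds these expected counts per gene and cell, of which 1.28% were whole within 1e-06, so no count model was used. Cells labelled multiplets or cell cycle were left out. Each cell was scaled to 10000 transcripts, values were averaged per mouse and cell type (at least 20 cells), and log2(mean + 1) was tested with limma 3.58.1 (R 4.3.3, trended variances), two-sided, Benjamini-Hochberg adjusted over genes detected in 10% or more of either group's cells (alternatives: 25%, none, pseudocount of 0.1, summed counts, quantile normalization, lane as a block, without cells holding at least 2 of 5 endothelial markers, leaving out each mouse). The summed counts were scaled to 10000. Single values were tested by exact permutation (scipy 1.17.1). The fit was tested on simulated data: with 200 genes changed by 0.5 log2 units, 80.5% were recovered on the 8873 genes of AT1, 87% on the 11077 of ciliated, 60% on the 11575 of club and 0% on the 11842 of goblet cells, where 80% were recovered at 1 log2 unit. The changed genes were drawn only from those with a mean log2(value + 1) above 1, with independent normal noise. Recovery of lower genes, among them several members, was not tested. The members, lists and tests were chosen with earlier results of these data known. Named genes were all members, genes of the wider list called in a type, up to 3 higher and 3 lower with the largest difference without overlap, and the 3 most like genes. Depth was 31094695 to 52753531 UMIs per mouse, counting error only. The mice were littermates in separate libraries. Replicate numbers follow accession order and pair no mice.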

Additional observations from a re-analysis of the deposited data

Results flagged for a closer look

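In 74 groups of 4 mice (a member, an epithelial type and an exposure), 1 mouse lay far from the other 3 in 4 groups, where chance alone gives about 3.7. Atp1b1 in AT1 cells of the RA mouse F1 was 5.32 against 0.141 to 0.629 in the other RA mice. Scnn1a in AT2 cells of the CS mouse C2 was 1.66 against 1.19 to 1.26. Slc12a2 in ciliated cells of the RA mouse M3 was 0.291 against 0.371 to 0.380. Kcne2 in club cells of the CS mouse C5 was 0.0570 against 0.0422 to 0.0439.

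The smoke difference of a member differed between 2 cell types in 6 of 35 tested pairs, each at the smallest exact permutation p of 0.0286, unadjusted. The share over all genes was not computed, so the count is not read as a result about the members, and the single pairs are descriptions. On the log2 scale, Ano1 differed by 0.58 between AT1 and ciliated cells, by 0.65 between AT1 and club cells, by -0.43 between ciliated and goblet cells and by -0.50 between club and goblet cells. Kcnq1 differed by -0.60 between ciliated and goblet cells, and Atp1b1 by 0.33 between ciliated and club cells. Leaving out each mouse in turn changed the sign of none of these 6. Ano1 was near 0.1 transcripts per 10,000 in ciliated cells, where a pseudocount of 1 holds any difference near 0. With no pseudocount, a setting chosen after seeing the data, both Ano1 contrasts with ciliated cells lost this p (0.343 with AT1 and 0.114 with goblet cells, exact permutation), and the other 4 kept it.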

How the results depend on the processing

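Without the filter on low genes, calls fell to 29 in AT1, 71 in ciliated, 0 in club and 0 in goblet cells, from 211, 513, 23 and 21. With lane as a block the counts were 176, 163, 17 and 17. In goblet cells they rose to 35 at a pseudocount of 0.1, 38 over genes in at least 25% of cells and 42 after quantile normalization. Leaving out 1 mouse gave 98 to 205 in AT1, 111 to 483 in ciliated, 1 to 21 in club and 0 to 47 in goblet cells. The lowest counts came without D2, D5, C2 and M3 in turn. The cause was not tested. Replicate numbers follow accession order and pair no mice, so the paired fit took lane as the block, and under it 0 members were called.

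Members called in the 4 tested types were 0, or 1 (Scnn1a in AT1 cells) over genes in at least 25% of cells and 0 to 1 when 1 mouse was left out. In the other types they were 0, and 0 to 1 when 1 mouse was left out.

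Differences near 0 changed sign. With summed counts, Cftr was -0.031 in club and -0.004 in goblet cells, and Slc12a2 in goblet cells -0.035. After quantile normalization Cftr was -0.01 and Slc12a2 -0.042 in goblet cells. Without cells holding endothelial genes Slc12a2 in goblet cells was -0.004. Leaving out 1 mouse, the differences were -0.08 to 0.069 for Scnn1b in AT1 cells, -0.073 to 0.109 for Scnn1b, -0.165 to 0.009 for Scnn1g and -0.028 to 0.074 for Cftr in club cells, and -0.048 to 0.16 for Scnn1a, -0.037 to 0.158 for Scnn1g, -0.034 to 0.043 for Cftr and -0.128 to 0.123 for Slc12a2 in goblet cells. At a pseudocount of 0.1 the AT2 differences were -0.81 for Kcne2, 0.30 for Scnn1b and 0.28 for Ano1, against -0.36, 0.07 and 0.09. It also moved differences in the tested types, such as Kcnq1 in ciliated (-0.317 against -0.106) and goblet cells (0.768 against 0.49). Ano1 in goblet cells was 0.832 against 0.451, Slc12a2 in ciliated cells 0.285 against 0.104 and Atp1b1 in AT1 cells -1.197 against -0.662. For the wider list, alternatives were run after seeing the data: calls in ciliated cells were 0 to 3 when 1 mouse was left out.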
